A study of Homo sapiens with 6 samples.

Results

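The ATF4 response is described here by 41 genes, chosen by symbol as ATF4, its partners and the genes of serine and amino acid supply that it is known to control, out of 61541 genes in the count table. Each symbol was matched to 1 row of that table. The members were chosen with earlier results of these data known, and every share of members set beside that of all genes carries this limit. Transcript levels were read by RNA-seq in luciferases-expressing HepG2 cells, a human hepatoblastoma line that carries an artificial chromosome with an ARE-driven SLR3 luciferase and a TK-driven ELuc luciferase as internal control. Both groups were grown in DMEM with FBS, non-essential amino acids and sodium pyruvate, so the medium supplied several of the amino acids whose synthesis and uptake the members serve. The sedanolide group (3 libraries) received 100 μM sedanolide, a phthalide found in celery, for 24 h. The control group (3 libraries) is labelled only as a 24 h control. Whether the 3 libraries of a group came from separate cultures is not stated in the sources used here, so the p-values measure the spread between these libraries, which may be technical. All cells derive from a single line, so the values describe that line, and in bulk RNA a smaller number of expressing cells cannot be told apart from less RNA per cell.

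ATF4 is a basic leucine zipper transcription factor whose mRNA is translated poorly in unstressed cells and better when kinases that sense amino acid shortage, heme shortage, ER stress or viral RNA phosphorylate the translation factor eIF2alpha. It binds, often with a C/EBP partner, a composite C/EBP-ATF element and switches on genes for amino acid uptake, serine and asparagine synthesis, mitochondrial one-carbon metabolism and the charging of tRNA. Because ATF4 itself is set mostly at translation, its mRNA level says little about ATF4 protein, which was not measured.

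The composite element was searched, as TGATGNAAN on both strands, in RefSeq promoter windows (GRCh38.p14) running from 250 bases before to 50 bases after a RefSeq start, with a window for each alternative start of a gene. Of the 35 members with a window, 12 held the element in at least 1 window (34.3%), against 1215 of all 27305 genes with a window (4.45%). Counted by window, 1268 of all 35116 windows held it (3.61%). The stretches printed here come from the 6 members that both held it and had higher values with sedanolide at an unadjusted p under 0.05, followed by CEBPG and AARS1 as members that held it without such a value. They are written 5′ to 3′ along the gene, and the capitals mark the element.
ASNS: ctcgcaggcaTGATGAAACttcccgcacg
SLC1A5: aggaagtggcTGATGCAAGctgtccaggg
MTHFD1L: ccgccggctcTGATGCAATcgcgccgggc
SLC3A2: tgcaggactcCTTACATCAgctcc
SLC1A4: gcggctcccgTTTGCATCAtctccagccg
NARS1: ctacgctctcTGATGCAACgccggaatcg
CEBPG: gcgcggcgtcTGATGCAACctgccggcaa
AARS1: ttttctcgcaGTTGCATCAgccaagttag

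Distances are to the RefSeq start of the window that holds the element. The members shown have 1 to 4 windows each, and all 8 stretches lie inside the longer gene bounds of GENCODE 44. In ASNS (chr7:97872458-97872486, minus strand), SLC1A5 (chr19:46784893-46784921, minus strand) and MTHFD1L (chr6:150866347-150866375, plus strand) the element lay 68, 97 and 129 bases before that start. In SLC1A4 (chr2:64989381-64989409, plus strand) it began 8 bases before the start, ran across it and was written on the opposite strand. In SLC3A2 (chr11:62881725-62881748, plus strand, element on the opposite strand) and NARS1 (chr18:57621804-57621832, minus strand) it lay after the start, at base 37 and base 15. The elements of CEBPG (chr19:33374061-33374089, plus strand) and AARS1 (chr16:70289676-70289704, minus strand, element on the opposite strand) lay 42 and 188 bases before the start. CEBPG and NARS1 carried the same letters, and AARS1 carried their reverse complement. Members with higher values at an unadjusted p under 0.05 held the element in 6 of the 10 with a window (60.0%). The members not under that p held it in 5 of the 23 with a window (21.7%), namely ATF3, CEBPG, SLC7A1, AARS1 and GARS1. Outside these groups, FGF21, which was not tested for a difference, held it, and SESN2, lower at that p, did not. A gene counted as holding the element if any of its windows did, so genes with more windows had more chances. The shares of genes are not corrected for this. The members were chosen as genes that ATF4 is known to control, so a share above that of all genes may come from this choice. These shares were not tested, and a match to these letters is not a measured binding site.

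The libraries held 16420258 to 26714853 expected counts each. The main axis of variation over all genes (component 1, 56.1% of the variance) did not follow the treatment. It placed controls 1 and 2 with sedanolide 3, called side A here (1.43% to 2.15% mitochondrial counts), apart from control 3 with sedanolide 1 and 2, called side B (4.23% to 5.22%). What separates the sides is not given in the sources used here, and the sides were read from these libraries, with the members among the genes used. Results are therefore also given from a side-adjusted fit, which adds the side as a covariate, or as differences within a side. Of the 10 hepatocyte markers, all were detected and summed to 30200 to 47300 CPM in the controls and 21600 to 39200 CPM with sedanolide, with 9 log2 fold changes below 0 and 3 genes (TTR, FGB and ALB) lower at an unadjusted p under 0.05. Defining markers of other cells were at or near 0, with 3 of 7 fibroblast, 1 of 6 leukocyte and 3 of 5 endothelial markers at 0 in every library. The summed fibroblast markers, nearly all PDGFRB, were 15.2 to 24.6 CPM in the controls and 5.36 to 11.4 CPM with sedanolide, and the summed leukocyte markers, nearly all LYZ, were 827 to 1370 and 476 to 779 CPM. Summed endothelial markers were 4.14 to 5.24 and 3.91 to 5.13 CPM. The part of these levels in the results was not tested.

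To ask whether the ATF4 response differed after 24 h of sedanolide, the members were taken from an edgeR quasi-likelihood fit over all 14102 genes tested, where a call needed a Benjamini-Hochberg adjusted p under 0.05 and a change of at least 1.5-fold. The largest differences were higher values of SLC3A2, SLC7A5 and SLC1A5, which bring amino acids into the cell, of MTHFD2 in mitochondrial one-carbon metabolism and of ASNS, which makes asparagine, and a lower value of the stress regulator NUPR1. None of the 40 tested members was called by edgeR, where 0.667% of all genes tested were called. By DESeq2 at the same thresholds SLC3A2 was called higher (0.915% of all genes tested) and NUPR1 lower (1.4% of all). At an unadjusted p under 0.05, 11 members were higher (5.34% of all genes tested) and 2 were lower (6.57% of all). The 3 sedanolide values lay above all 3 control values in 9 members (8.69% of all genes tested) and below them in 4 (9.65% of all). The log2 fold change was above 0 in 30 of 40 members, or 75%, against 50.7% of all genes tested, and its median was 0.205 over the members and 0.00571 over all genes. In the side-adjusted fit, 3 members were called higher (1.06% of all genes tested), namely SLC3A2, SLC7A5 and ASNS, and NUPR1 was called lower (1.62% of all). In that fit 18 members were higher (9.44% of all) and 3 were lower (10% of all) at an unadjusted p under 0.05. Those past it there and not in the fit of the condition alone were ATF4, DDIT4, SHMT2, SLC7A1, GARS1, STC2 and VLDLR, which were higher, and PCK2, which was lower. Without sedanolide 3, PHGDH, SHMT2, GARS1 and EPRS1 were higher and DDIT3 and SLC38A2 lower at that threshold, while SESN2 and EIF4EBP1 no longer passed it. The 41st member, FGF21, a secreted hormone of the fasting and stress response, had 0 counts in 5 libraries and 4 counts in sedanolide 3, and was not tested.

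**Figure D1:**
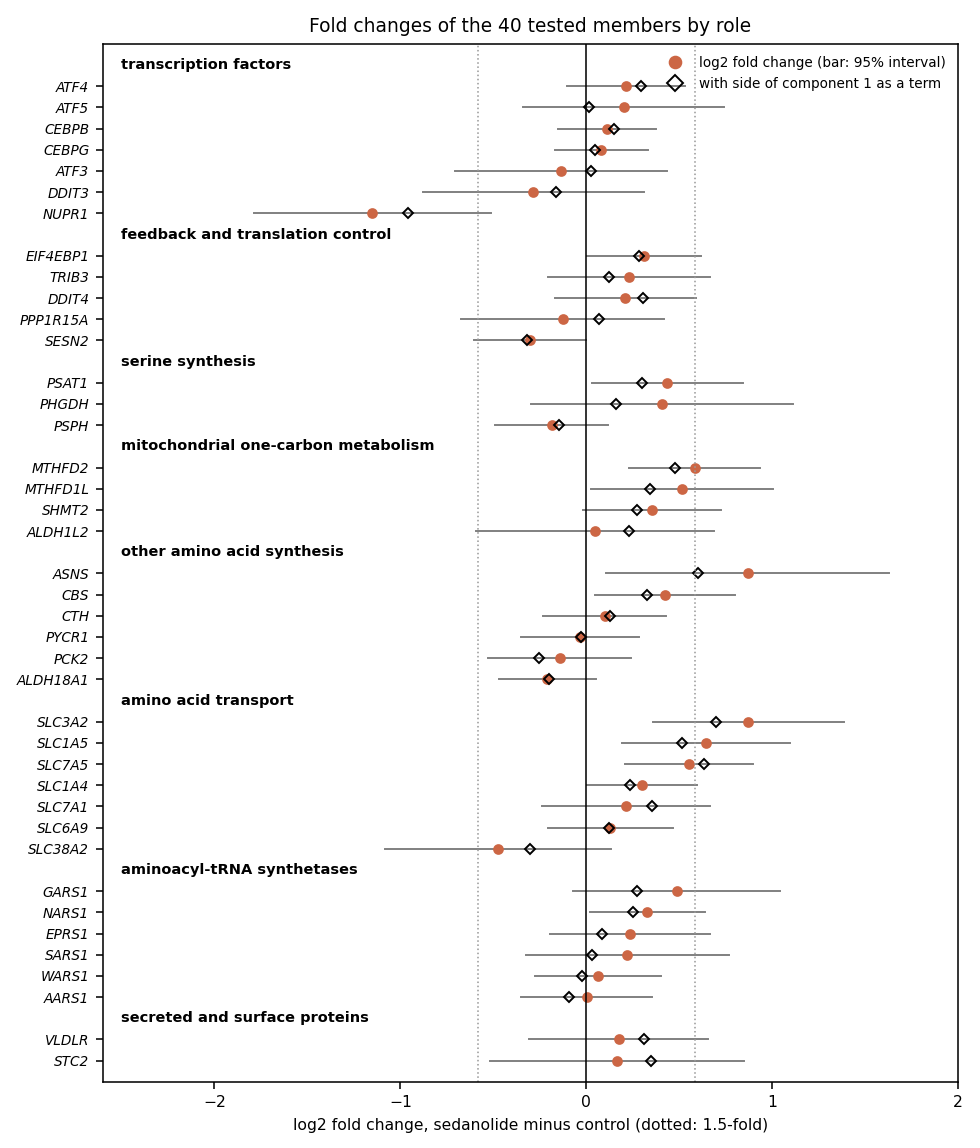
Log2 fold change of sedanolide over control for the 40 tested members, grouped by role and ordered by size within a role. Points and bars give the edgeR estimate with its 95% interval, open diamonds the estimate after side adjustment, and dotted lines a 1.5-fold change, and the points of SLC3A2, ASNS and SLC1A5 lie beyond the upper line while that of NUPR1 lies beyond the lower line.

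Among the 7 transcription factors, 4 log2 fold changes were above 0 and 3 below, with a median of 0.08. NUPR1, a small stress-induced chromatin protein that ATF4 and CHOP switch on, measured 19.0, 21.4 and 14.1 CPM (counts scaled to library size, TMM-normalized) in controls 1 to 3 and 5.97, 7.18 and 11.3 CPM in sedanolide 1 to 3. The groups did not overlap, and the highest sedanolide value was that of library 3. The log2 fold change was -1.15 (SE 0.27, edgeR adjusted p = 0.159, n = 3 and 3), and -0.96 (adjusted p = 0.00469) in the side-adjusted fit. By DESeq2, NUPR1 passed the thresholds at an adjusted p of 0.00895. Without sedanolide 3 it also passed in edgeR, with a log2 fold change of -1.46 and an adjusted p of 0.0324. NUPR1 shares 909 exon bases with a lncRNA on the same strand, which is not among the genes counted.

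ATF4 itself ranged over 286 to 358 CPM in the controls and 348 to 412 CPM with sedanolide, with the highest value in sedanolide 3. Its log2 fold change was 0.21 with a 95% interval of -0.10 to 0.53, and the differences within sides A and B were 0.30 and 0.29. In the C/EBP factors the groups overlapped. CEBPB, which drives many liver acute-phase genes, gave 47.2 to 54.0 CPM in the controls and 51.0 to 56.7 CPM with sedanolide (log2 fold change 0.11, interval -0.15 to 0.38). CEBPG, a dimer partner of ATF4, gave 62.7 to 70.4 CPM in the controls and 67.6 to 72.3 CPM with sedanolide (log2 fold change 0.08, interval -0.17 to 0.33). DDIT3, which encodes the pro-apoptotic factor CHOP, was low, at 4.36 to 5.97 CPM in the controls and 3.36 to 5.59 CPM with sedanolide, and in it sedanolide 1 and 2 lay below every control while sedanolide 3 lay among them. Its log2 fold change was -0.28 (interval -0.88 to 0.31) with all libraries and -0.58 without sedanolide 3. ATF3, a stress-induced repressor, gave 3.11 to 4.36 CPM in the controls and 2.63 to 4.44 CPM with sedanolide (log2 fold change -0.14, interval -0.71 to 0.43), and ATF5, a relative of ATF4, gave 15.5 to 23.6 CPM in the controls and 16.6 to 26.4 CPM with sedanolide (log2 fold change 0.20, interval -0.34 to 0.74). None of these 6 factors passed an unadjusted p under 0.05 with all libraries and the condition as the only term. ATF4 passed it in the side-adjusted fit (log2 fold change 0.29, adjusted p = 0.11), and DDIT3 passed it without sedanolide 3 (adjusted p = 0.177). DDIT3 and ATF5 overlap genes on the opposite strand, 355 exon bases with MARS1 and 565 with NUP62, and since it is not stated whether the counting used strand, their counts are uncertain.

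Of the 5 feedback and translation control genes, 3 log2 fold changes were above 0 and 2 below, and 1 gene in each direction passed an unadjusted p under 0.05. EIF4EBP1, which encodes the translation repressor 4E-BP1, measured 70.0, 54.9 and 66.1 CPM in controls 1 to 3 and 83.5, 77.9 and 75.4 CPM in sedanolide 1 to 3. All sedanolide values were above all control values, with a log2 fold change of 0.31 (SE 0.13, edgeR adjusted p = 0.407). SESN2, a leucine sensor upstream of mTORC1, measured 40.5, 33.8 and 40.6 CPM in controls 1 to 3 and 33.2, 28.6 and 31.3 CPM in sedanolide 1 to 3. All its sedanolide values were below the controls, although control 2 and sedanolide 1 were close, and the log2 fold change was -0.30 (SE 0.127, edgeR adjusted p = 0.412). TRIB3, a pseudokinase that restrains ATF4, gave 58.4 to 79.5 CPM in the controls and 70.3 to 101 CPM with sedanolide (log2 fold change 0.23, interval -0.20 to 0.66). DDIT4, an mTORC1 inhibitor, gave 89.2 to 109.7 CPM in the controls and 98.7 to 137 CPM with sedanolide, with sedanolide 3 highest (log2 fold change 0.21, interval -0.17 to 0.59). For DDIT4 this was 0.30 in the side-adjusted fit and 0.06 without sedanolide 3. PPP1R15A, the regulatory subunit that directs dephosphorylation of eIF2alpha, gave 14.3 to 22.4 CPM in the controls and 14.6 to 22.4 CPM with sedanolide (log2 fold change -0.13, interval -0.67 to 0.42). In the last 3 genes the groups overlapped.

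The 3 enzymes of serine synthesis did not share a direction. PSAT1, the aminotransferase of the second step, measured 242, 239.9 and 298 CPM in controls 1 to 3 and 408, 366 and 281 CPM in sedanolide 1 to 3. Control 3 lay above sedanolide 3, while sedanolide 1 and 2 lay above every control. Its log2 fold change was 0.44 (SE 0.173, edgeR adjusted p = 0.383). PHGDH, which opens the pathway from 3-phosphoglycerate, measured 236, 164 and 315 CPM in controls 1 to 3 and 389, 345 and 213 CPM in sedanolide 1 to 3. Its spread followed the sides, and the log2 fold change went from 0.41 (interval -0.30 to 1.11) to 0.16 in the side-adjusted fit. PSPH, the phosphatase of the last step, gave 86.2 to 87.5 CPM in the controls and 65.3 to 84.7 CPM with sedanolide, so the groups did not overlap, with a log2 fold change of -0.19 (interval -0.49 to 0.12).

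All 4 enzymes of mitochondrial one-carbon metabolism had log2 fold changes above 0, with a median of 0.43 (0.31 in the side-adjusted fit), and 2 of them were higher at an unadjusted p under 0.05. MTHFD2, the mitochondrial methylene-tetrahydrofolate dehydrogenase and cyclohydrolase, measured 114, 117 and 142 CPM in controls 1 to 3 and 199.8, 201 and 159 CPM in sedanolide 1 to 3. The groups did not overlap, and the log2 fold change was 0.58 (SE 0.15, edgeR adjusted p = 0.186). In the side-adjusted fit it was 0.48 (adjusted p = 0.016), past the FDR and short of the 1.5-fold change. MTHFD1L, which completes the route to formate and holds the composite element, measured 92.9, 75.8 and 110.3 CPM in controls 1 to 3 and 155, 143 and 101 CPM in sedanolide 1 to 3. Control 3 was above sedanolide 3, and the log2 fold change was 0.51 (SE 0.208, edgeR adjusted p = 0.392). SHMT2, which splits serine into glycine and a one-carbon unit, gave 239 to 318 CPM in the controls and 322 to 402 CPM with sedanolide, without overlap (log2 fold change 0.35, interval -0.02 to 0.72, unadjusted p = 0.059). ALDH1L2, which oxidizes 10-formyl-tetrahydrofolate, gave 57.6 to 94.4 CPM in the controls and 54.5 to 103 CPM with sedanolide, with sedanolide 3 highest. Its log2 fold change was 0.05 (interval -0.60 to 0.69) with all libraries and -0.23 without sedanolide 3, and it shares 131 exon bases with WASHC4 on the opposite strand.

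**Figure D2:**
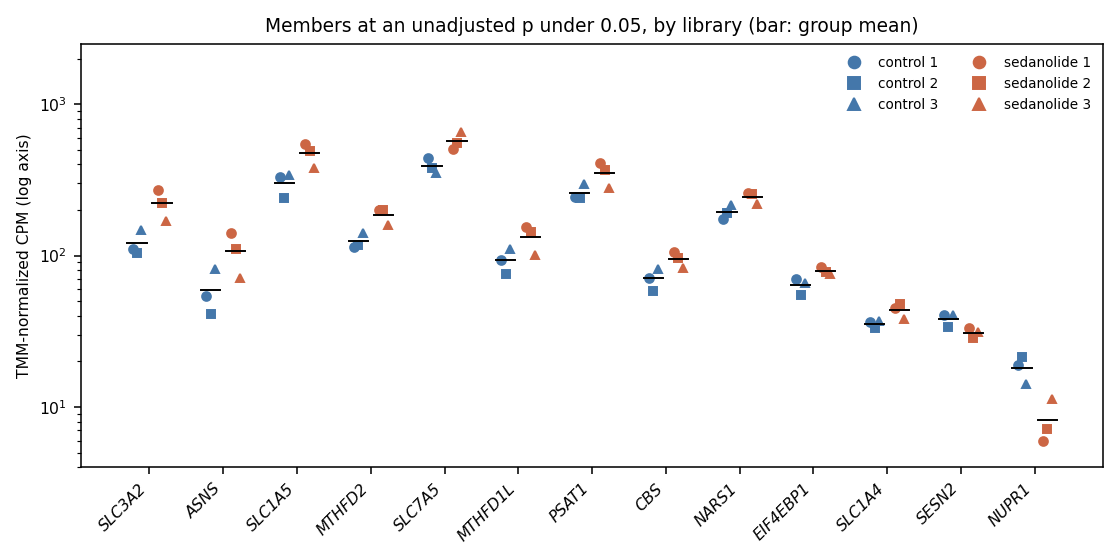
TMM-normalized CPM on a log axis for the 13 members at an unadjusted p under 0.05, ordered by fold change, with 1 point per library (controls blue, sedanolide orange, point shape for the library number) and a bar at the group mean. In ASNS, MTHFD1L and PSAT1 control 3 lies above sedanolide 3, and in the other 10 genes the groups do not overlap.

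Of the 6 other enzymes of amino acid synthesis, 3 had log2 fold changes above 0 and 3 below, with a median of 0.03. ASNS, asparagine synthetase and a classical ATF4 target, measured 54.0, 41.2 and 82.1 CPM in controls 1 to 3 and 142, 111 and 71.0 CPM in sedanolide 1 to 3. The values spread widely in both groups, control 3 was above sedanolide 3, and the log2 fold change was 0.87 (SE 0.323, edgeR adjusted p = 0.358). Within each side the difference was nearly the same, 0.59 in side A and 0.61 in side B, and in the side-adjusted fit the log2 fold change was 0.60 (adjusted p = 0.0459). ASNS shares 2415 exon bases with a lncRNA on the same strand, to which 13.1% as many counts were given. CBS, which joins homocysteine to serine in the transsulfuration pathway, measured 71.5, 58.6 and 81.5 CPM in controls 1 to 3 and 105, 95.8 and 83.3 CPM in sedanolide 1 to 3. These groups were apart by a small gap between control 3 and sedanolide 3, with a log2 fold change of 0.42 (SE 0.159, edgeR adjusted p = 0.363). CTH, the next enzyme toward cysteine, gave 11.1 to 13.5 CPM in the controls and 11.6 to 13.7 CPM with sedanolide (log2 fold change 0.10, interval -0.23 to 0.43). ALDH18A1, which starts proline synthesis from glutamate, gave 537 to 567 CPM in the controls and 438 to 503 CPM with sedanolide, lower without overlap (log2 fold change -0.21, interval -0.47 to 0.05, unadjusted p = 0.0984). PYCR1, which completes proline synthesis, gave 318 to 413 CPM in the controls and 330.0 to 362 CPM with sedanolide (log2 fold change -0.03, interval -0.35 to 0.28). PCK2, the mitochondrial PEP carboxykinase, gave 214 to 278 CPM in the controls and 188 to 257 CPM with sedanolide (log2 fold change -0.14, interval -0.53 to 0.24, and -0.25 in the side-adjusted fit).

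Of the 7 amino acid transporters, 4 were higher at an unadjusted p under 0.05 (5 in the side-adjusted fit), all 4 without overlap of the groups, and the median log2 fold change was 0.30 (0.35 in the side-adjusted fit). SLC3A2, the heavy chain 4F2hc (CD98) that partners several light chains, measured 110.1, 104 and 148 CPM in controls 1 to 3 and 271, 223 and 168 CPM in sedanolide 1 to 3. The log2 fold change was 0.87 (SE 0.217, edgeR adjusted p = 0.181), or 0.70 (adjusted p = 0.00752) in the side-adjusted fit, and DESeq2 gave an adjusted p of 0.0101. SLC7A5, the light chain LAT1 that exchanges large neutral amino acids, measured 441, 377 and 352 CPM in controls 1 to 3 and 506, 556 and 652 CPM in sedanolide 1 to 3. Its highest value was in sedanolide 3, the library in which SLC3A2 was lowest within the group. The log2 fold change of SLC7A5 was 0.55 (SE 0.147, edgeR adjusted p = 0.203), and 0.63 (adjusted p = 0.00913) in the side-adjusted fit.

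SLC1A5, the glutamine and neutral amino acid exchanger ASCT2, measured 329, 240.2 and 338 CPM in controls 1 to 3 and 546, 493 and 379 CPM in sedanolide 1 to 3. The log2 fold change was 0.64 (SE 0.192, edgeR adjusted p = 0.254). SLC1A4, the related exchanger ASCT1 for serine, alanine and cysteine, measured 36.2, 33.0 and 36.8 CPM in controls 1 to 3 and 44.7, 47.6 and 38.3 CPM in sedanolide 1 to 3. Its groups were separated by the small gap between control 3 and sedanolide 3, and the log2 fold change was 0.30 (SE 0.126, edgeR adjusted p = 0.408). SLC38A2, the sodium-coupled transporter SNAT2, had the most counts of the transporters, at 1579, 2046 and 1289 CPM in controls 1 to 3 and 855, 1123 and 1554 CPM in sedanolide 1 to 3. It is the transporter whose log2 fold change was below 0, -0.48 (interval -1.09 to 0.13) and -0.73 without sedanolide 3, and its values were lower in side B than in side A within each group. SLC7A1, the cationic amino acid transporter CAT1, gave 94.7 to 125 CPM in the controls and 107 to 162 CPM with sedanolide (log2 fold change 0.21, interval -0.24 to 0.66, and 0.35 in the side-adjusted fit). SLC6A9, the glycine transporter GLYT1, gave 14.4 to 16.8 CPM in the controls and 15.7 to 19.9 CPM with sedanolide (log2 fold change 0.13, interval -0.21 to 0.47).

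The 6 aminoacyl-tRNA synthetases among the members, which load amino acids onto tRNA, had log2 fold changes from 0.00 to 0.49, and 1 was higher at an unadjusted p under 0.05. NARS1, for asparagine, measured 174, 192 and 214 CPM in controls 1 to 3 and 257, 253 and 218 CPM in sedanolide 1 to 3. Control 3 and sedanolide 3 were nearly level, and the log2 fold change was 0.33 (SE 0.132, edgeR adjusted p = 0.388). GARS1, for glycine, measured 261, 229 and 340.1 CPM in controls 1 to 3 and 467, 422 and 274 CPM in sedanolide 1 to 3, with values higher in side B than in side A in each group. Its log2 fold change was 0.49 (interval -0.07 to 1.04), and 0.27 in the side-adjusted fit. SARS1, for serine, gave 93.9 to 150.0 CPM in the controls and 105 to 167 CPM with sedanolide (log2 fold change 0.22, interval -0.33 to 0.77). EPRS1, for glutamate and proline, gave 299 to 389 CPM in the controls and 306 to 439 CPM with sedanolide (log2 fold change 0.23, interval -0.19 to 0.66). WARS1, for tryptophan, and AARS1, for alanine, had log2 fold changes of 0.06 (interval -0.27 to 0.40) and 0.00 (interval -0.35 to 0.36), and the groups overlapped at 47.2 to 58.2 against 48.4 to 60.5 CPM for WARS1 and 179 to 237 against 182 to 227 CPM for AARS1. The median of the 6 was 0.23, and 0.06 in the side-adjusted fit.

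Of the secreted and surface proteins, STC2, a stanniocalcin, gave 68.4 to 102 CPM in the controls and 69.7 to 141 CPM with sedanolide, with sedanolide 3 above every other library. Its log2 fold change was 0.16 (interval -0.52 to 0.85) with all libraries, 0.35 (adjusted p = 0.168) in the side-adjusted fit and -0.22 without sedanolide 3. VLDLR, the very low density lipoprotein receptor, gave 7.35 to 9.70 CPM in the controls and 7.80 to 12.3 CPM with sedanolide (log2 fold change 0.17, interval -0.31 to 0.66), and its log2 fold change was 0.31 (adjusted p = 0.224) in the side-adjusted fit and -0.03 without sedanolide 3.

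Within a side, each comparison sets 1 library against the mean of a pair, and no test was made. The difference was above 0 within both sides in 26 of 40 members, or 65%, against 36.6% of all genes tested, and below 0 within both in 7 members, or 17.5%, against 33.8%. SLC3A2 gave 0.65 in side A and 0.73 in side B, and SLC7A5 gave 0.68 and 0.59. Both chains of the LAT1 transporter were thus above 0 on either side. For MTHFD2 the differences were 0.45 and 0.50, for SLC1A5 0.43 and 0.62, and for NUPR1 -0.83 and -1.10. DDIT3 differed in sign and STC2 in size between the sides, at 0.13 and -0.46 for DDIT3 and 0.58 and 0.10 for STC2, differences that were not tested.

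**Figure D3:**
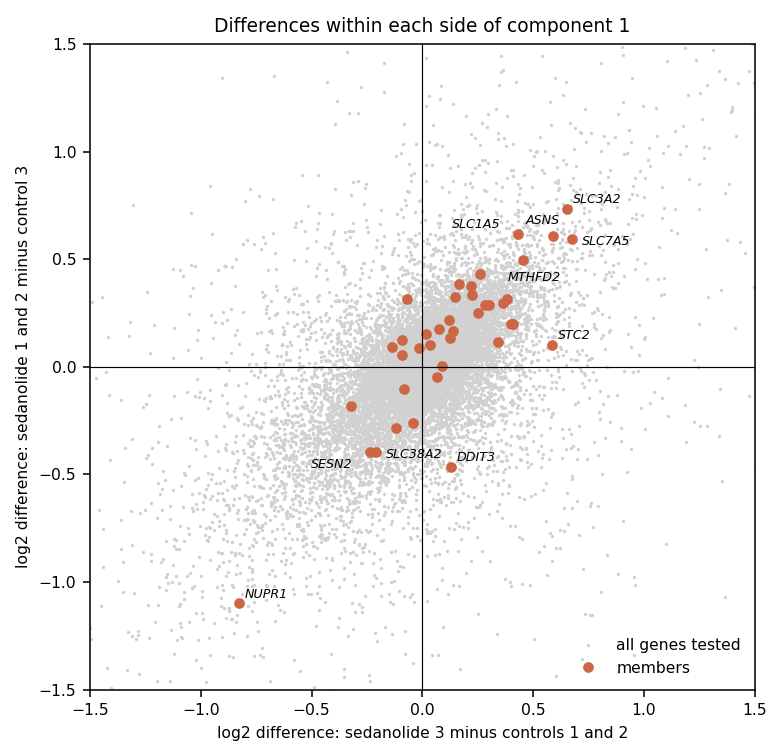
Log2 difference of sedanolide 3 from controls 1 and 2 (side A, horizontal axis) against that of sedanolide 1 and 2 from control 3 (side B, vertical axis), with the 40 tested members in orange and all genes tested in grey, of which 190 lie outside the axes. SLC3A2, SLC7A5, ASNS, SLC1A5 and MTHFD2 lie at the upper right, NUPR1 lies alone at the lower left, and the 26 members above 0 on both axes fill the upper right part.

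Levels of different genes were compared in TPM, which takes transcript length into account, from the second table, where 40 members were listed. SLC38A2 had the highest control mean, 654 ± 196 TPM (SD, n = 3), followed by PYCR1 at 389 ± 58.4 and ATF4 at 377 ± 71.1 TPM, which did not differ beyond their spread. ATF3 had the lowest, 3.33 ± 0.92 TPM, next to VLDLR at 4.54 ± 0.398 TPM. The paired chains SLC3A2 and SLC7A5 measured 94.6 ± 13.2 and 133 ± 19.4 TPM in the controls and 161 ± 26.3 and 182 ± 39.4 TPM with sedanolide. ASNS measured 55.3 ± 14.2 TPM in the controls and 92.5 ± 24.3 TPM with sedanolide, and NUPR1 measured 22.6 ± 6.06 and 9.92 ± 3.11 TPM. Among the serine enzymes PHGDH and PSAT1 lay at 263 ± 69.7 and 185 ± 14.2 TPM in the controls, above PSPH at 82.4 ± 8.92 TPM. In MTHFD2, SHMT2 and PSPH the groups were apart in CPM but overlapped in TPM. For MTHFD2, control 3 was at 121 TPM and sedanolide 3 at 119 TPM. The other members apart in CPM were apart in TPM too.

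**Figure D4:**
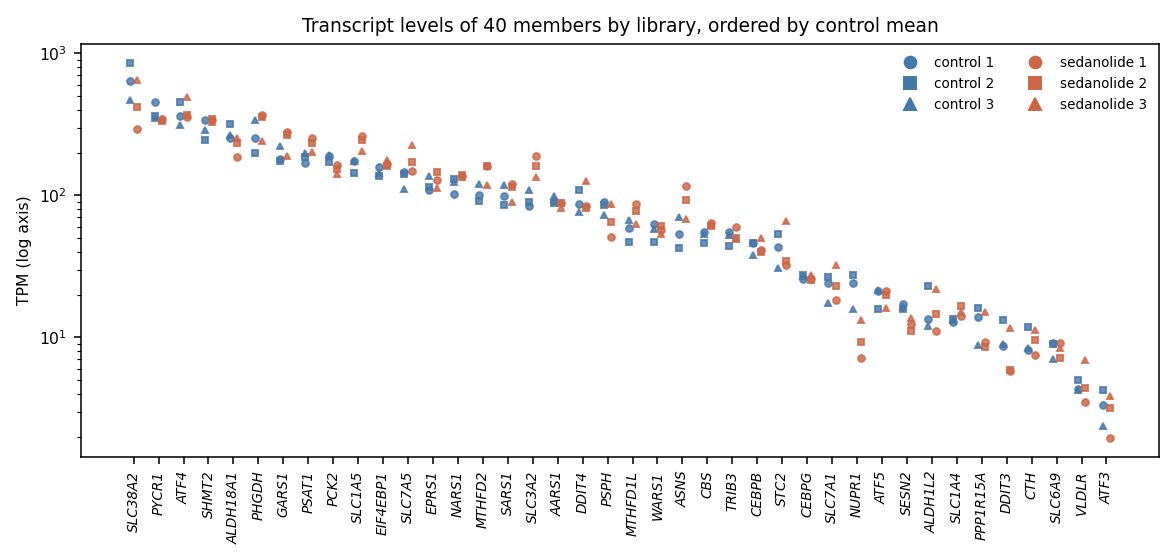
TPM on a log axis for the 40 members in the second table, ordered by the control mean, with 1 point per library (controls blue, sedanolide orange, point shape for the library number). Levels run from SLC38A2, PYCR1 and ATF4 at the left to VLDLR and ATF3 at the right, and the sedanolide points of NUPR1 lie below all its control points.

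Other genes of the pathway were taken from 8 lists of general knowledge, chosen with earlier results of these data known. None of their genes was called by edgeR with the condition as the only term. DESeq2 called SLC7A11, CCPG1, ALDH1L1 and SLC38A6 higher (0.915% of all genes tested) and GPT2, SLC38A4 and GLUD1 lower (1.4% of all). Upstream of ATF4, 14 genes were listed, for eIF2alpha, its kinases and GCN1, its phosphatase, its exchange factor (EIF2B1 to EIF2B5) and the relay from mitochondria. Their median log2 fold change was 0.10. At an unadjusted p under 0.05, 0 of them were lower (6.57% of all genes tested) and 1 was higher (5.34% of all). This was EIF2S1, which encodes eIF2alpha, at 46.1 ± 5.56 CPM in the controls and 62.3 ± 7.70 CPM with sedanolide (log2 fold change 0.43, edgeR adjusted p = 0.304). In the side-adjusted fit 2 were higher (9.44% of all), EIF2S1 and the kinase gene EIF2AK2, and 1 was lower (10% of all). The lower gene was the kinase gene EIF2AK4 (log2 fold change -0.27, adjusted p = 0.109). Both kinase genes were named after their values were seen.

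Further ATF4 and CHOP targets numbered 16, of which 14 were tested and CHAC1 and NIBAN1 had too few counts. Of these 14, 4 were higher (5.34% of all genes tested) and 1 was lower (6.57% of all) at an unadjusted p under 0.05. Their median log2 fold change was -0.07. SLC7A11, the cystine transporter light chain that also pairs with SLC3A2 and is a known NRF2 target too, was at 53.7 ± 7.96 CPM in the controls and 123 ± 25.1 CPM with sedanolide (log2 fold change 1.19, edgeR adjusted p = 0.0513). CCPG1, an ER-phagy receptor, was at 46.5 ± 1.48 and 73.8 ± 4.71 CPM (log2 fold change 0.67, edgeR adjusted p = 0.0513). In the side-adjusted fit both were called, at adjusted p = 0.00131 and 0.0051. The lower gene was GPT2, a mitochondrial alanine aminotransferase, at 452 ± 36.7 and 293 ± 34.3 CPM (log2 fold change -0.63, edgeR adjusted p = 0.126). GDF15 and XPOT were the other higher genes of the 4, named here after their values were seen.

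The 17 remaining cytosolic aminoacyl-tRNA synthetases and their scaffold proteins had a median log2 fold change of 0.38 (0.27 in the side-adjusted fit), and 16 were above 0. At an unadjusted p under 0.05, 7 were higher (5.34% of all genes tested) and 1 was lower (6.57% of all). IARS1, for isoleucine, was at 324 ± 6.65 CPM in the controls and 411 ± 25.3 CPM with sedanolide (log2 fold change 0.34, edgeR adjusted p = 0.27). The scaffold gene AIMP2 and LARS1, for leucine, had log2 fold changes of 0.49 and 0.35 (adjusted p = 0.297 and 0.318). The lower gene was another scaffold, AIMP1, named after its value was seen (log2 fold change -0.35). Of the 17 mitochondrial synthetases 12 were above 0 with a median of 0.12. The 1 higher at that threshold (5.34% of all genes tested) was NARS2, with a log2 fold change of 0.39. No test of the difference between the cytosolic and mitochondrial lists was made.

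The 19 folate, methionine and glycine enzymes had a median of 0.15. Of these, 3 were higher (5.34% of all genes tested) and 2 were lower (6.57% of all) at an unadjusted p under 0.05. ALDH1L1, the cytosolic counterpart of ALDH1L2, was at 36.3 ± 6.40 CPM in the controls and 66.8 ± 12.0 CPM with sedanolide (log2 fold change 0.88, edgeR adjusted p = 0.131) and was called in the side-adjusted fit (adjusted p = 0.0272). MAT1A, the liver methionine adenosyltransferase, had a log2 fold change of 0.49. BHMT was the other higher gene and GLDC was among the lower genes, both named after their values were seen. Among 13 enzymes of glutamate, glutamine, proline, alanine and branched-chain metabolism the median was 0.03. GLUD1, glutamate dehydrogenase, was the 1 gene at that threshold, and was lower (6.57% of all genes tested). It was at 808 ± 37.8 and 488 ± 39.6 CPM (log2 fold change -0.73, edgeR adjusted p = 0.0513, and 0.00501 in the side-adjusted fit, where it was called lower).

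Beside the 7 member transporters, 26 other amino acid transporters were listed and 19 were tested, with a median log2 fold change of -0.05. Of the 19, 2 were higher (5.34% of all genes tested) and 4 were lower (6.57% of all) at an unadjusted p under 0.05. The difference between these sets was not tested. SLC38A4, the liver transporter SNAT4, was at 6.07 ± 1.18 CPM in the controls and 2.58 ± 1.11 CPM with sedanolide (log2 fold change -1.22, edgeR adjusted p = 0.186). SLC16A10, the aromatic amino acid transporter TAT1, and SLC38A6 had log2 fold changes of -0.50 and 0.99. SLC6A6, the taurine transporter, was the other higher gene, and SLC7A9 and SLC1A2 were the other lower genes, all named after their values were seen. In the side-adjusted fit, SLC38A4 was called lower and SLC6A6 higher. Of 19 tested genes of amino acid sensing upstream of mTORC1, 13 were below 0 with a median of -0.13. With an unadjusted p under 0.05, 0 were higher (5.34% of all genes tested) and 2 were lower (6.57% of all). These were FNIP2, a folliculin partner (log2 fold change -0.51), and SESN3, a relative of SESN2 (log2 fold change -0.83).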

How the data were processed

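According to the methods, the authors' paired-end reads passed through Trimmomatic, STAR (genome GRCh38) and RSEM. The versions, the annotation release and the strand setting are not given in the sources used here. The deposited count table holds expected counts, not normalized, for 61541 genes and 2 luciferases. The second table, as deposited, holds log2(TPM + 1) for 11006 rows, from which TPM were taken back.

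Expected counts were rounded and analysed in R 4.3.3 with edgeR 4.0.16 (filterByExpr, TMM, robust quasi-likelihood fit, condition as the only term, all 6 libraries). A call required an adjusted p under 0.05 (Benjamini-Hochberg, over all 14102 genes tested) and a change of 1.5-fold, the thresholds and design of the study. The fit was tested on simulated data with less variation between replicates and no split between sides. That check therefore does not show how the fit performs on these libraries. DESeq2 1.42.0, the test of the study, and limma 3.58.1 on the log2(TPM + 1) table were alternatives, beside other scalings, filters and terms and the omission of each library. Depth was 16420258 to 26714853 expected counts per library, and replicates differed by more than sampling noise.

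The members and all lists were chosen with earlier results of these data known, and no list was tested as a set. All members were named, and full statistics were given to those at an unadjusted p under 0.05. Of each other list, up to 3 genes with the smallest p under 0.05 were named. Side A and side B are the signs of principal component 1 of log2 CPM, and the side-adjusted fit adds the side to the condition. Each within-side value is a difference of mean log2 CPM (prior count 2). Overlaps between genes were read from GENCODE 44. Of the genes in the other lists, SAMTOR was not matched. Of the other lists, 1 gene that the naming rule selects is not reported here, and it stays in all fits and counts.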

Additional observations from a re-analysis of the deposited data

How the results depend on the processing

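The number of all genes called was 94, 326 by DESeq2, 157 with all genes of at least 1 count, 379 in the side-adjusted fit, 61 by limma on log2(TPM + 1), and 0 to 135 when 1 library was left out (0 without control 1 or sedanolide 2, 7 without control 2, 12 without sedanolide 1, 28 without control 3). The number of members called was 0, 2 by DESeq2, 4 in the side-adjusted fit, and 0 to 1 when 1 library was left out (1, NUPR1, without sedanolide 3). The number of members at an unadjusted p under 0.05 was 13, 21 in the side-adjusted fit, 6 by limma on log2(TPM + 1) and on log2(TPM + 0.1), and 5 to 17 when 1 library was left out (6 without control 1 or control 2, 5 without sedanolide 1 or sedanolide 2). NUPR1, MTHFD2, SLC3A2, SLC7A5 and SLC1A5 were under 0.05 in each of these 6 fits. The causes of these shifts were not tested. No member past an unadjusted p under 0.05 changed direction under any alternative. The counts of members did not move by over 1.5 times with other scalings, the 0.5 CPM filter or no robust prior.

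With the replicate number as a term (replicate block) 0 genes were called and 5 members were at an unadjusted p under 0.05. Over all genes, libraries that shared a number did not deviate together (correlations of -0.133, -0.295 and -0.73). These correlations include the split between the sides, so they cannot decide whether the numbers also pair the libraries. With 3 libraries in each group and a biological coefficient of variation of 0.199, a log2 fold change as large as the -1.15 of NUPR1 was not called, and FGF21 entered only the fit of all genes with at least 1 count.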

Other observations

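Within each treatment group, the values of many members also differed between the sides. The difference of side B from side A was above 0 in both the control and the sedanolide group in 21 of 40 members, or 52.5%, against 44% of all genes tested, and below 0 in both in 15 members, or 37.5%, against 39.8%. GARS1, PHGDH and ASNS were higher in side B, and SLC38A2, ALDH1L2 and STC2 were lower. In ASNS, control 3 exceeded controls 1 and 2 by 0.80 on the log2 scale, and sedanolide 1 and 2 exceeded sedanolide 3 by 0.82. In SLC38A2 the same differences were -0.48 and -0.67. These genes were chosen after their values were seen, and the difference between sides was not tested.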
